A study of Rattus norvegicus with 15 samples.

Results

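The genes described here run mitosis: the 48 listed genes cover entry kinases and cyclins, the chromosomal passenger complex, the spindle checkpoint, centromere and kinetochore proteins, spindle and midzone motors, condensin and other chromosome proteins, and the machinery of anaphase and exit. They were chosen by name, from their roles in cell division, with earlier results of these arrays known. A member was measured by a probe set carrying that single gene symbol in the platform annotation, with a log2 intensity of at least 4 on at least 3 of the 15 arrays, and by the probe set with the highest mean where a gene had several. This gave 41 members of the 9002 named genes tested. Cenpa had a probe set that did not reach that level, and Cdc25c, Nek2, Ndc80, Tpx2, Kif4a and Anln have no probe set of a single symbol and are not analysed here.

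The cells were spermatogonial stem cells of the rat, which sustain sperm production in the testis, expanded for 1 month in medium without serum but with GDNF (glial cell line-derived neurotrophic factor, which signals through RET and GFRA1). The 5 groups were a control kept in GDNF, cultures after 18 h of GDNF withdrawal, and cultures given GDNF again for 2, 4 or 8 h after the same 18 h without it. Each group had 3 arrays from independent cultures, and neither strain nor age nor genotype is given in the labels. Cultures left without GDNF for the added 2, 4 or 8 h are not analysed here, so time since withdrawal and the return of GDNF cannot be told apart.

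Mitotic genes are among the most strongly periodic transcripts of the cell cycle. Their messages build up in G2 and fall after division, driven by the MuvB complex with B-MYB and then FOXM1, which act through a promoter motif called the cell cycle genes homology region, often with CCAAT boxes bound by NF-Y, and the same complex with other partners represses them in resting cells. In cycling stem cells their summed level is commonly read as a measure of how many cells are in G2 and mitosis. In RNA from whole cultures, fewer cells of a kind and less RNA per cell cannot be told apart.

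The promoters are shown first because the members share motifs. The genes were chosen by name and not by motif. Since these motifs are known for mitotic genes as a class, their sharing is a description of the list and not an independent result. RefSeq promoter windows (assembly GRCr8, 250 bases before and 50 after the gene's start) matched 34 of the 41 members; those of Foxm1, Ccna2, Aurkb, Incenp, Kif2c, Racgap1 and Ube2c are not used here. The core of the homology region, TTTGAA, searched on both strands, lay in 24 of 34 member windows (70.6%), against 18.3% of all 33469 windows of the table and 11% of 7202 windows of tested named genes. CCAAT on either strand lay in 26 of the 34 (76.5%), against 37.5% and 38.7%, and both motifs lay in 20 (58.8%), against 7.4% and 4.8%. At least 2 CCAAT boxes were present in 16 of the 34 windows (47.1%), against 11.2% and 14.4%. A match is a description of letters and not a bound site. The 5 sequences below are the 250 bases before the start, read along the gene's strand, with TTTGAA and CCAAT or their reverse complements, TTCAAA and ATTGG, in capitals. Top2a (topoisomerase II alpha, chr10:84473094-84473343, minus strand), Kif22 (a chromosome-arm kinesin, chr1:191080879-191081128, minus strand), Espl1 (separase, chr7:135302466-135302715, plus strand) and Prc1 (a midzone microtubule bundler, chr1:143659231-143659480, plus strand) were lower 8 h after GDNF return than after withdrawal, while Cdk1 (the mitotic kinase, chr20:19265043-19265292, plus strand) carries the same motifs and did not pass the test in that comparison.
Top2a: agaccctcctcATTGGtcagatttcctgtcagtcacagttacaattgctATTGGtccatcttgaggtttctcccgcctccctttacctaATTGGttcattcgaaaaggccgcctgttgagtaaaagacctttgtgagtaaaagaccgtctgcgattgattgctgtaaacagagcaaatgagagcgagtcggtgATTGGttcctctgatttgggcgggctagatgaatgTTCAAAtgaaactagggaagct
Kif22: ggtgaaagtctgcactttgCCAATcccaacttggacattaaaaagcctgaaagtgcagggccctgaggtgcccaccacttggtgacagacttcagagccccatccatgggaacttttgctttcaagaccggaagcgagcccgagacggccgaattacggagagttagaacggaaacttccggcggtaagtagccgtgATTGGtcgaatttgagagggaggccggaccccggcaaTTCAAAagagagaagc
Espl1: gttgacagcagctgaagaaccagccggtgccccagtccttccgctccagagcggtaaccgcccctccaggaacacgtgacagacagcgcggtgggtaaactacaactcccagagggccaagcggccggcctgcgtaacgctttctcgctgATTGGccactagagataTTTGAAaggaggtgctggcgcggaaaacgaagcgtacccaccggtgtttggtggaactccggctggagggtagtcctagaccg
Prc1: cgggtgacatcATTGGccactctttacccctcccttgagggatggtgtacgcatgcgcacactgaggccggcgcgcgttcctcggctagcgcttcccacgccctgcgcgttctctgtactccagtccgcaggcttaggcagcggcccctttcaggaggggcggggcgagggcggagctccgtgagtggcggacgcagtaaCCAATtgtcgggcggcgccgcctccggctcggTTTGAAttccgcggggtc
Cdk1: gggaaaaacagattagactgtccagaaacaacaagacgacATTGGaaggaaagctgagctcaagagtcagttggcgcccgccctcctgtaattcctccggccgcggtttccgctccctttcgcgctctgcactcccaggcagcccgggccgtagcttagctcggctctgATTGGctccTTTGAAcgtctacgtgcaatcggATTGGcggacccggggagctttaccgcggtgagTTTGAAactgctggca

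In these 5 sequences the TTTGAA (or TTCAAA) nearest the start had its first printed base 16 bases before it in Cdk1, 16 in Kif22, 18 in Prc1, 22 in Top2a and 83 in Espl1. Among the members with a window, TTTGAA was present in 14 of the 21 that were lower at 8 h than after withdrawal and in 10 of the 13 that were not. At least 2 CCAAT boxes were present in 13 of those 21 (61.9%) and in 3 of those 13 (23.1%), a split looked at after the values were known and not tested.

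Deposited intensities were taken to log2 and compared with limma, with p-values adjusted by Benjamini-Hochberg over all 15856 tested probe sets and a threshold of 0.05, and "rose" or "fell" is kept for changes past it. Of the tested probe sets 49.6% differed among the 5 groups by limma's F test, and of the members 34 of 41 (82.9%) did. The exceptions were Ccna2, Cdc25b, Birc5, Nuf2, Kif23, Smc2 and Smc4. Members are brighter than most probe sets and had a smaller residual SD (median 0.0652 on the log2 scale, against 0.102 over all), which makes small changes easier to call. Among the 5535 tested probe sets with a mean log2 intensity of at least 9, which hold 34 of the members, 61.4% differed among the groups. RNA quality was read from the beta-actin control probe sets, whose 3′ log2 signal exceeded the 5′ signal by group means that ranged from 1.99 in the control to 2.20 after withdrawal, with 2.06 at 8 h. On the withdrawal arrays that difference was 2.17 to 2.238, above all control (1.929 to 2.091), 2 h (1.971 to 2.119) and 8 h (1.98 to 2.161) arrays. The 4 h arrays (2.013 to 2.229) overlapped them. The same difference for GAPDH ranged from -0.27 at 2 h to -0.12 after withdrawal, with -0.20 in the control and -0.16 at 8 h. Its withdrawal arrays lay above all control and 2 h arrays and overlapped those of 4 h and 8 h. For hexokinase it was 2.496 in the control, 2.42 after withdrawal, 2.24 at 2 h, 2.21 at 4 h and 2.34 at 8 h, and its 2 h and 4 h arrays lay below all withdrawal arrays; the part of RNA quality in the results was not tested. Array medians ranged from 8.051 to 8.111 on the log2 scale, and precision is limited by the small number of arrays.

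Markers of the labelled cells were present: Itga6 and Epcam, surface proteins of spermatogonia, had mean log2 intensities of 13.43 and 13.42 in the withdrawal group, and 7 of 15 germ cell markers listed were tested, with Ret at 12.07 and Tex14 at 12.28. Ddx4, Dazl, Zbtb16 and Gfra1 were not among the tested genes. The mean log2 level of the 7 germ cell markers was 11.371 to 11.467 on the control arrays and 11.108 to 11.329 after withdrawal, without overlap. It was 11.277 to 11.339 at 2 h, 11.288 to 11.361 at 4 h and 11.316 to 11.375 at 8 h. For other cells, 13 of 19 mesenchymal markers, 7 of 15 Sertoli, 4 of 15 meiotic, 2 of 14 immune and blood, and 1 of 11 Leydig and peritubular markers were tested. Star, Cyp11a1 and Insl3 of Leydig cells, Sox9 and Amh of Sertoli cells, and Ptprc and Csf1r of immune cells were not among the tested genes. The mean of the 7 Sertoli markers was 6.602 to 6.642 in the control and 6.201 to 6.329 after withdrawal. That of the 4 meiotic markers was 10.486 to 10.537 in the control and 10.539 to 10.77 after withdrawal. The mean log2 level of the 13 mesenchymal markers was 8.36 to 8.83 on the control arrays, 7.95 to 8.81 after withdrawal, 7.86 to 8.14 at 2 h, 7.98 to 8.50 at 4 h and 8.55 to 8.84 at 8 h, so that the 2 h arrays lay below all control and 8 h arrays and the 4 h arrays below all 8 h arrays.

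Across the group means the members moved downward from withdrawal to 8 h of GDNF return. The mean log2 level of all 41 was 10.30 ± 0.014 in the control, 10.35 ± 0.048 after withdrawal, 10.28 ± 0.027 at 2 h, 10.19 ± 0.032 at 4 h and 10.12 ± 0.010 at 8 h (SD over arrays, n = 3 each). The 8 h arrays (10.109 to 10.127) lay below all other arrays, of which the lowest was 10.165 at 4 h. The lowest of the 5 group means was at 8 h in 28 members (68.3%), against 21.8% of all tested probe sets, and the highest was after withdrawal in 21 members (51.2%), against 28.4%. By the probe set used for each gene, no member had its highest mean at 8 h and none changed 2-fold in any comparison. Another, dimmer Cdc20 probe set had its highest mean at 8 h. There it rose 2.28-fold against withdrawal and 3.69-fold against 2 h (limma adjusted p = 0.000629 and 1.26e-05). Group means fell at each step from withdrawal through 2, 4 and 8 h in 16 members (39%), against 7.8% of all tested probe sets.

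**Figure D1:**
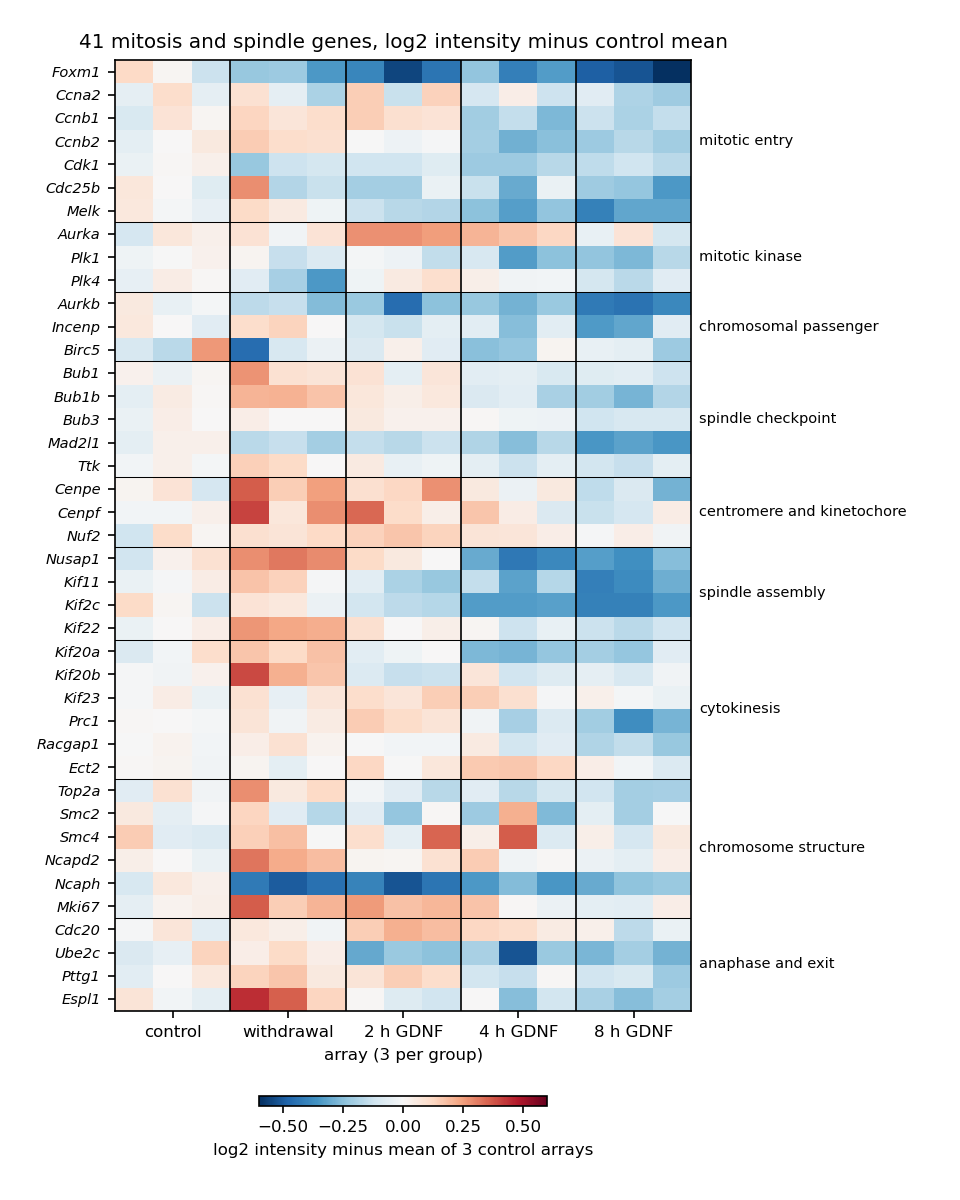
Heat map of 41 mitosis and spindle genes (rows, by role) on 15 arrays (columns, 3 per group), coloured by log2 intensity minus the mean of the 3 control arrays. Red cells gather in the withdrawal columns and blue cells in the 8 h columns, with Foxm1, Aurkb, Mad2l1 and Ncaph already blue after withdrawal.

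**Figure D2:**
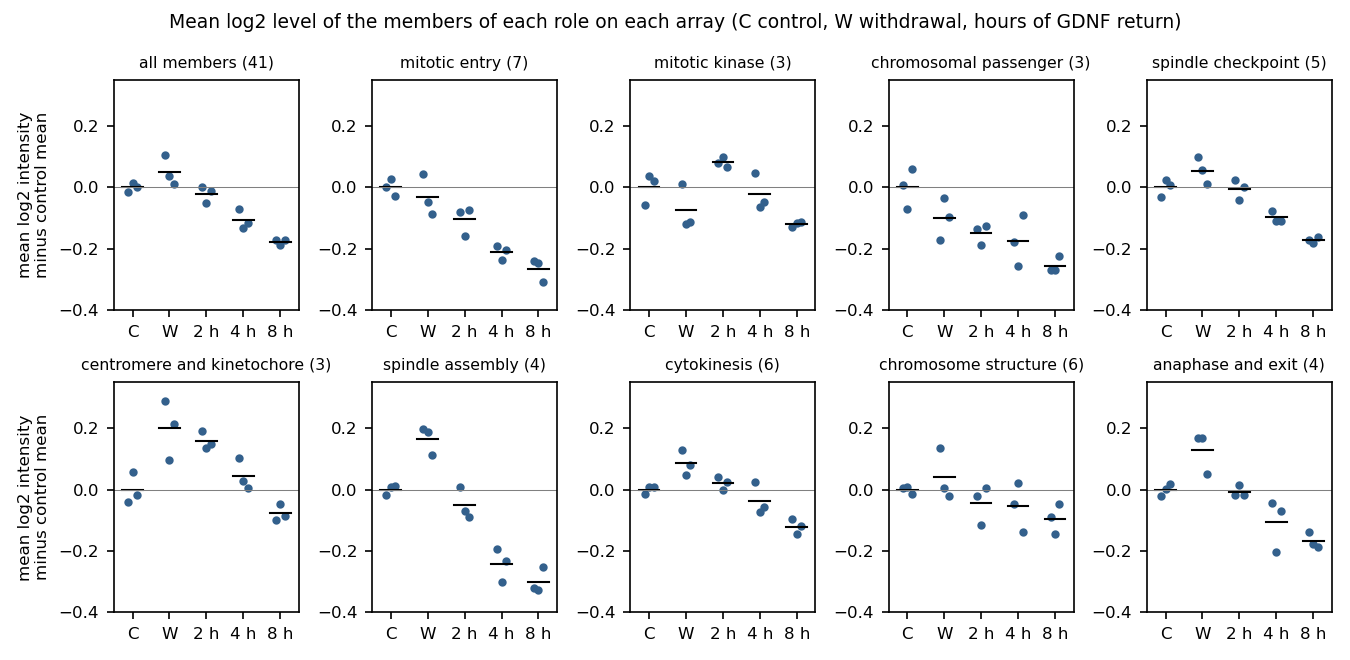
Mean log2 intensity of the members of each role on each array, minus the control mean (points, arrays; bars, group means; in parentheses, the number of genes). Most roles are highest after withdrawal or in the control and lowest at 8 h. The mean of the 3 mitotic kinases is highest at 2 h, though Plk1 alone is highest in the control.

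After 18 h without GDNF, members moved in both directions. Of the 41, 9 rose (11.4% of all tested probe sets did) and 6 fell (9.67% did), with a median log2 change of 0.06 against 0.01 over all tested probe sets. Groups did not overlap in 13 members that were higher (18.7% of all tested probe sets were higher without overlap) and in 6 that were lower (15.5%), and the 6 are a share near that of all probe sets. Those that rose were Espl1, Nusap1, Kif20b, Cenpe, Ncapd2, Mki67, Kif22, Bub1b and Ccnb2, by 1.08 to 1.24-fold, and those that fell were Ncaph, Foxm1, Plk4, Aurkb, Mad2l1 and Cdk1, by 1.11 to 1.37-fold. The 9 rises are 22% of the members and the 6 falls 14.6%. Among the brighter probe sets 14.8% rose and 12.5% fell, so the share of members that fell is near that background. Only 3 members fell without control replicate 2, without control replicate 3, or without withdrawal replicate 1 or 3. Germ cell and Sertoli marker means were also lower after withdrawal and the meiotic mean higher, and their part in these changes was not tested.

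With GDNF returned, calls shifted to falls. Against withdrawal, 13 members fell and 3 rose at 2 h (14.2% and 11.9% of all tested probe sets), 19 fell and 3 rose at 4 h (16% and 14.6%), and 27 fell and 1 rose at 8 h (15.4% and 9.62%). Among the brighter probe sets 18.3% fell and 15.2% rose at 2 h, 19.2% and 19.7% at 4 h, and 19% and 12% at 8 h. Median log2 changes of the members were -0.09, -0.17 and -0.26 at 2, 4 and 8 h, against -0.02, -0.01 and -0.02 over all tested probe sets. These 3 comparisons share the withdrawal arrays, so a high or low withdrawal array moves them together. At 8 h the groups did not overlap for 30 members on the low side and 1 on the high side, against 24.2% and 16.7% of all tested probe sets. Leaving out each array in turn gave 25 to 27 falls at 8 h, and 25 of the 28 members called at 8 h stayed past the threshold in every case; the exceptions were Foxm1, Incenp and Cenpf. Without withdrawal replicate 1, the array with the highest member mean, 2 members rose at 8 h and the median change at 2 h was -0.01.

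Against the control, 19 members fell at 8 h (7.49% of all tested probe sets did) and 0 rose by limma (4.83% did). Among the brighter probe sets 9.29% fell and 5.35% rose. The log2 changes in this comparison do not involve the withdrawal arrays. Its calls do, through the spread estimated over all 15 arrays. A single member, Nuf2, had a change above 0 there (adjusted p = 0.975), so none rose at an unadjusted p under 0.05 either, and 0 rises came under every alternative tried. The median log2 change was -0.16, against -0.02 over all tested probe sets, and the groups did not overlap for 26 members, all lower at 8 h (17.5% of all tested probe sets were lower without overlap and 12.6% higher). The 19 falls became 12 without control replicate 2 or 3, without 8 h replicate 1 or 2, or with each array centred on its median. Against 2 h, 18 members fell at 8 h and 1 rose (14.4% and 11.8% of all tested probe sets). In that comparison 9 of 13 mesenchymal markers rose, and with the mesenchymal mean as a covariate 7 members fell in place of 18. With the same covariate 27 members fell at 8 h against withdrawal, as without it. At 8 h against the control the mesenchymal means overlapped and 2 of the 13 markers rose. The mean log2 level of the 4 meiotic markers was higher without overlap (10.66 to 10.70 against 10.49 to 10.54 in the control), and that of the 7 Sertoli markers was lower without overlap (6.26 to 6.36 against 6.60 to 6.64); of the single genes 1 meiotic marker rose, and 1 Sertoli marker rose and 2 fell. The part of these markers in the members' changes was not tested.

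**Figure D3:**
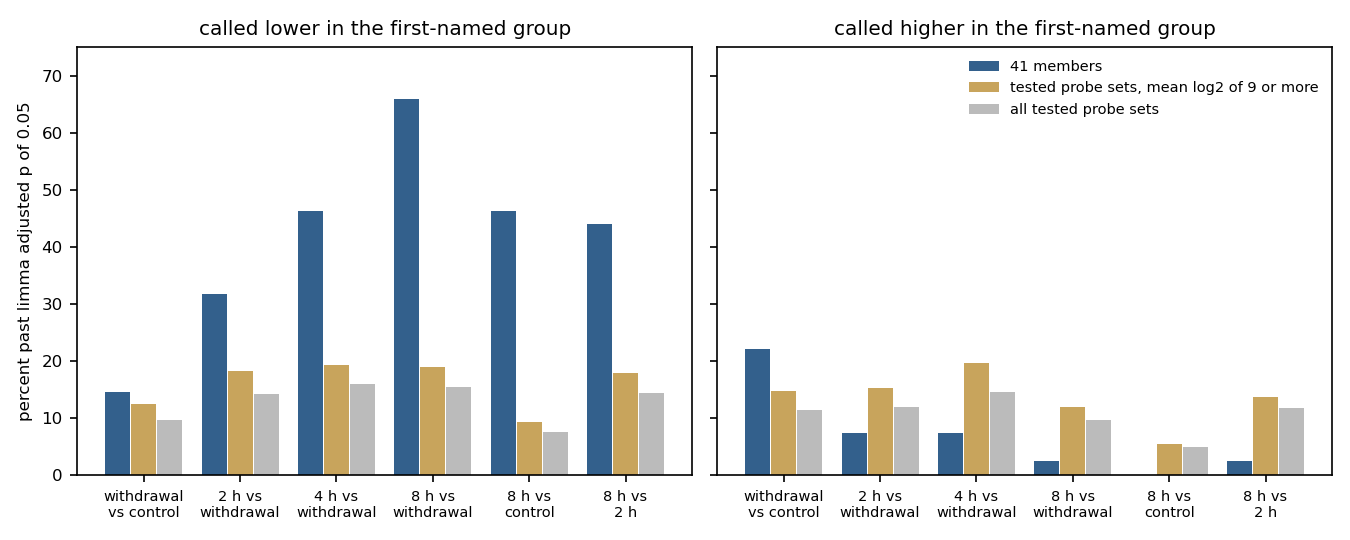
Percent of probe sets called lower (left) and higher (right) by limma in 6 comparisons, for the 41 members (blue), tested probe sets with a mean log2 intensity of at least 9 (gold) and all 15856 tested probe sets (grey). At 8 h against withdrawal the share of members called lower is several times that of either background, while shares called higher are below it after GDNF return.

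Of the 7 tested members that act at entry into mitosis, 4 fell at 8 h against withdrawal and 5 fell against the control. Of all tested probe sets 15.4% and 7.49% fell there. Foxm1, the forkhead factor that switches on the G2 and M genes, had intensities of 372.9, 345.8 and 313.8 in the control and 293.7, 294.9 and 270.1 after withdrawal. At 2 h Foxm1 read 261.9, 234 and 253.3, at 4 h 291.6, 258.7 and 271.9 and at 8 h 244.8, 240 and 201.6. Every withdrawal array lay below every control array, and 8 h held the 3 lowest values but for 1 array at 2 h. Foxm1 was 1.51-fold lower at 8 h than in the control (log2 change -0.59 ± 0.087 SE, limma adjusted p = 0.000451), the largest fall of any member in that comparison, but a second, dimmer probe set changed by -0.19 there (adjusted p = 0.607), and the mean of both did not pass (adjusted p = 0.056). Its fall after withdrawal was 1.20-fold (adjusted p = 0.0424) and was lost without any 1 of 7 arrays: control replicate 1 or 2, withdrawal replicate 1, 2 or 3, 2 h replicate 3 or 4 h replicate 3, with adjusted p from 0.0532 to 0.153. At 8 h against withdrawal it fell 1.25-fold (adjusted p = 0.0124), a call lost without 8 h replicate 3 (adjusted p = 0.0649). That second Foxm1 probe set had a log2 change of 0.25 after withdrawal (adjusted p = 0.427) and fell by 0.70 at 2 h against withdrawal (adjusted p = 0.02), so the probe sets differ in time course.

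Ccnb1, cyclin B1, the activator of CDK1 at mitotic entry, stood at 3562, 4011 and 3820 in the control and 4144, 3988 and 4081 after withdrawal. At 2 h Ccnb1 read 4197, 4052 and 4011, at 4 h 3283, 3430 and 3146 and at 8 h 3465, 3323 and 3434. The 4 h and 8 h arrays were all below every earlier array, while withdrawal and 2 h overlapped. It fell 1.24-fold at 4 h and 1.19-fold at 8 h against withdrawal (log2 changes -0.31 ± 0.044 and -0.26 ± 0.044 SE, limma adjusted p = 9.21e-05 and 0.000602), and its second probe set fell by 0.215 and 0.263 on the log2 scale. Against the control its fall of 1.11-fold at 8 h (adjusted p = 0.0311) was lost on omission of control replicate 2 or 3 or any 1 of the 8 h arrays (adjusted p 0.0585 to 0.118). Ccnb2, cyclin B2, rose 1.08-fold after withdrawal (adjusted p = 0.0293) and fell 1.10-, 1.29- and 1.24-fold at 2, 4 and 8 h against withdrawal (adjusted p = 0.0142, 2.28e-06 and 1.53e-05). The rise of Ccnb2 was lost on omission of control replicate 1 or 2, or of withdrawal replicate 1 or 2 (adjusted p 0.0586 to 0.113), and its fall at 2 h without withdrawal replicate 1 (adjusted p = 0.0515).

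Cdk1, the kinase that cyclin B activates, gave 1011, 1045 and 1061 in the control and 886.6, 954.6 and 964.2 after withdrawal. At 2 h Cdk1 read 956.1, 954.7 and 989, at 4 h 892.5, 892.4 and 926.6 and at 8 h 933.3, 956.1 and 927.7. All other arrays were below the 3 control arrays, the 4 h arrays were below all 2 h and 8 h arrays, and the withdrawal arrays overlapped those of 2, 4 and 8 h. It fell 1.11-fold after withdrawal (log2 change -0.15 ± 0.042 SE, limma adjusted p = 0.0185) and stood 1.11-fold below the control at 8 h (adjusted p = 0.0354), with a log2 change of 0.01 between withdrawal and 8 h (adjusted p = 0.935). The first call was lost on omission of control replicate 2 or 3, or of withdrawal replicate 1 (adjusted p 0.0519 to 0.0882), and the second on omission of control replicate 2 or 3 or any 1 of the 8 h arrays (adjusted p 0.0595 to 0.113). Melk, a kinase of proliferating and stem cells, fell 1.15-, 1.25- and 1.31-fold at 2, 4 and 8 h against withdrawal, and lay 1.27-fold below the control at 8 h (adjusted p = 0.000209). Cyclin A2 (Ccna2) and the phosphatase gene Cdc25b, which activates CDK1, did not pass in any of the 6 comparisons, with log2 changes from -0.21 to 0.10 and from -0.26 to -0.01.

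Of the 3 other mitotic kinases, 2 rose at 2 h of GDNF return against withdrawal (11.9% of all tested probe sets did). Neither of the 2 passed against withdrawal at 8 h. Plk4, the kinase that starts centriole duplication, read 2043, 2176 and 2119 in the control and 2015, 1840 and 1665 after withdrawal. At 2 h Plk4 read 2076, 2190 and 2267, at 4 h 2164, 2078 and 2086 and at 8 h 1963, 1885 and 2012. The withdrawal arrays were below every control, 2 h and 4 h array. Plk4 fell 1.15-fold after withdrawal (log2 change -0.20 ± 0.058 SE, limma adjusted p = 0.0209), rose 1.19-fold at 2 h (adjusted p = 0.00624) and 1.15-fold at 4 h (adjusted p = 0.0158) against withdrawal, and at 8 h differed from withdrawal by 0.09 on the log2 scale (adjusted p = 0.284). The fall was lost on omission of control replicate 2 or 3, or of withdrawal replicate 2 or 3 (adjusted p 0.0532 to 0.0907), and the 4 h rise without withdrawal replicate 3 or 4 h replicate 1 (adjusted p = 0.0789 and 0.054).

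Aurka, the centrosome and spindle pole kinase, had values of 499.8, 562.4 and 546.9 in the control and 569, 528 and 567.4 after withdrawal. At 2 h Aurka read 647.8, 648.4 and 636.8, at 4 h 616.3, 600.5 and 584.1 and at 8 h 519.3, 566.8 and 498.5. The 3 arrays at 2 h were the highest of all 15, and the 8 h arrays overlapped the control. It rose 1.16-fold at 2 h against withdrawal (log2 change 0.22 ± 0.059 SE, limma adjusted p = 0.0139; 0.0673 without withdrawal replicate 2) and fell 1.22-fold from 2 h to 8 h (adjusted p = 0.00222). Plk1, the kinase that drives entry, centrosome maturation and exit, measured 371.3, 376.8 and 384.4 in the control and 382.1, 342.9 and 356.3 after withdrawal. At 2 h Plk1 read 374.5, 370 and 340.2, at 4 h 353.3, 298.9 and 318.3 and at 8 h 320.1, 313.3 and 335.8. Its 8 h arrays were below all control, withdrawal and 2 h arrays. The single call was 8 h against control, 1.17-fold lower (log2 change -0.23 ± 0.068 SE, adjusted p = 0.042), and it was lost on leaving out any 1 of 10 of the 15 arrays: the 3 control and 3 8 h arrays, withdrawal replicate 3, 2 h replicates 1 and 2 and 4 h replicate 3 (adjusted p 0.0502 to 0.13).

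In the chromosomal passenger complex, 2 of the 3 tested members fell at 8 h against withdrawal (15.4% of all tested probe sets did). Aurkb, the kinase that corrects faulty spindle attachments, was lowest at 8 h, with 1124, 1046 and 1073 in the control and 967.7, 981 and 903.3 after withdrawal. At 2 h Aurkb read 927.3, 787 and 909.9, at 4 h 924.2, 887.1 and 924.5 and at 8 h 805.6, 795.8 and 825.3. Control arrays exceeded all other arrays, and the 8 h arrays lay below every control, withdrawal and 4 h array but above 1 array at 2 h. It fell 1.34-fold at 8 h against the control (log2 change -0.42 ± 0.058 SE, limma adjusted p = 0.000299) and 1.17-fold against withdrawal (adjusted p = 0.00894). After withdrawal it fell 1.14-fold (adjusted p = 0.0343), a call lost on omission of control replicate 1 or 3, or of withdrawal replicate 1 or 3 (adjusted p 0.0567 to 0.122). Incenp, its scaffold, fell 1.25-fold at 8 h against withdrawal (adjusted p = 0.014), lost without withdrawal replicate 2 or 8 h replicate 1 or 2 (adjusted p 0.0528 to 0.0614), and neither of its other 2 probe sets passed. Birc5, survivin, did not pass in any of the 6 comparisons (log2 changes -0.20 to 0.15).

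All 5 tested members of the spindle checkpoint fell at 8 h against withdrawal and 3 fell against the control. The shares of all tested probe sets were 15.4% and 7.49%. Bub1b, the BUBR1 subunit that holds the anaphase-promoting complex in check, rose 1.14-fold after withdrawal (limma adjusted p = 0.00535) and fell 1.24-fold at 4 h and 1.33-fold at 8 h against withdrawal (adjusted p = 9.2e-05 and 7.74e-06), with a mean of 1421 ± 53.1 intensity units in the control and 1219 ± 43.4 at 8 h (SD, n = 3). Mad2l1, the MAD2 protein that binds CDC20, took another course: it fell 1.12-fold after withdrawal (adjusted p = 0.00535), had log2 changes of 0.02 and -0.03 at 2 and 4 h, and fell 1.13-fold at 8 h against withdrawal and 1.27-fold against the control (adjusted p = 0.00392 and 3.81e-05). Of its other 2 probe sets, 1 fell after withdrawal and at 8 h against the control, and neither passed against withdrawal. Bub1 and Ttk, the kinases that load the checkpoint on kinetochores, fell 1.18- and 1.14-fold at 8 h against withdrawal (adjusted p = 0.00369 and 0.00529), where a second Ttk probe set did not pass (adjusted p = 0.177), and Bub3 fell 1.09-fold (adjusted p = 0.00975), though a dim second Bub3 probe set did not pass there and rose by 0.55 at 2 h (adjusted p = 0.029). The fall of Bub3 against the control (1.07-fold, adjusted p = 0.036) was lost on omission of control replicate 2 or 3 or any 1 of the 8 h arrays (adjusted p 0.0765 to 0.116).

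Of the 3 centromere and kinetochore members, 2 fell at 8 h against withdrawal (15.4% of all tested probe sets did). Cenpe, the kinetochore motor that carries chromosomes to the spindle equator, showed 288.6, 302.1 and 265.8 in the control and 367.3, 315.7 and 337.8 after withdrawal. At 2 h Cenpe read 304.3, 310.9 and 345.1, at 4 h 297.3, 278.1 and 297.3 and at 8 h 256.2, 268.7 and 234.4. Withdrawal arrays were above all control arrays, and the 8 h arrays were below every withdrawal, 2 h and 4 h array while overlapping the control. It rose 1.19-fold after withdrawal (log2 change 0.25 ± 0.078 SE, limma adjusted p = 0.0309), lost on omission of control replicate 1 or 3, or of withdrawal replicate 1 or 3 (adjusted p 0.0564 to 0.128). It fell 1.34-fold at 8 h against withdrawal (adjusted p = 0.000977) and 1.26-fold against 2 h (adjusted p = 0.005). Cenpf, a farnesylated protein of the outer kinetochore, fell 1.24-fold at 8 h against withdrawal (adjusted p = 0.019), a call lost without withdrawal replicate 1 or 3 or 8 h replicate 1 or 2 (adjusted p 0.0534 to 0.0907). Nuf2, part of the complex that grips microtubule ends, had a log2 change of -0.09 at 8 h against withdrawal (adjusted p = 0.152).

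All 4 tested members that build the spindle fell at 2, 4 and 8 h against withdrawal, and all 4 fell at 8 h against the control. The shares of all tested probe sets were 14.2%, 16% and 15.4% against withdrawal and 7.49% against the control. Nusap1, which bundles spindle microtubules around chromosomes, gave 895, 984.3 and 1030 in the control and 1174, 1207 and 1177 after withdrawal. At 2 h Nusap1 read 1049, 1008 and 970.8, at 4 h 784.4, 718.5 and 739.4 and at 8 h 769.5, 750.7 and 811.9. Withdrawal arrays were the highest of all groups, 2 h overlapped the control, and the 4 h and 8 h arrays lay below everything before them. It rose 1.23-fold after withdrawal (log2 change 0.29 ± 0.055 SE, limma adjusted p = 0.00159) and fell 1.18-fold at 2 h, 1.59-fold at 4 h and 1.53-fold at 8 h against withdrawal (adjusted p = 0.00671, 4.37e-07 and 1.75e-06), the largest fall of any member at 4 and at 8 h. Its second probe set passed in the same 6 comparisons in the same directions, with log2 changes of 0.36 after withdrawal and -0.655 at 8 h against withdrawal.

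Kif11, the Eg5 motor that pushes spindle poles apart, stood at 391, 399.7 and 414 in the control and 451.7, 441.2 and 399.8 after withdrawal. At 2 h Kif11 read 384.3, 351.9 and 342.4, at 4 h 364.1, 321.5 and 356.6 and at 8 h 302.6, 308.9 and 327.3. All arrays at 2, 4 and 8 h were below all control and withdrawal arrays. It fell 1.20-fold at 2 h and 1.38-fold at 8 h against withdrawal (log2 change at 8 h -0.46 ± 0.068 SE, limma adjusted p = 0.0113 and 0.000181), and 1.28-fold at 8 h against the control (adjusted p = 0.00299). The 2 h call was lost without 2 h replicate 3 (adjusted p = 0.0517). A second Kif11 probe set changed by -0.05 at 2 h (adjusted p = 0.648), fell by 0.26 at 4 h and by 0.29 at 8 h against withdrawal (adjusted p = 0.0123 and 0.0079), and did not pass at 8 h against the control (log2 change -0.14, adjusted p = 0.239). Kif2c, the MCAK depolymerase that resets faulty attachments, read 616, 572.2 and 520.2 in the control and 601.3, 593 and 553.9 after withdrawal. At 2 h Kif2c read 525.8, 509.6 and 504.6, at 4 h 450.5, 450.6 and 453.5 and at 8 h 428.8, 429.6 and 448. On this probe set the groups stepped down without overlap from withdrawal to 2 h, from 2 h to 4 h and from 4 h to 8 h. It fell 1.34-fold at 8 h against withdrawal and 1.30-fold against the control (log2 changes -0.42 ± 0.059 and -0.38 ± 0.059 SE, adjusted p = 0.000115 and 0.00062), as did its second probe set by 0.27 and 0.23 on the log2 scale. Its 2 h call (1.13-fold lower, adjusted p = 0.0327) was lost without withdrawal replicate 1 or 2 or any 1 of the 2 h arrays (adjusted p 0.0527 to 0.0992). The second Kif2c probe set did not pass at 2 h against withdrawal (adjusted p = 0.0562). Its mean log2 level was 8.435 at 4 h and 8.538 at 8 h, so it did not step down there. Kif22, the chromosome-arm motor whose promoter is printed above, rose 1.18-fold after withdrawal (adjusted p = 0.000925) and fell 1.30-fold at 8 h against withdrawal (adjusted p = 1.37e-05). Its fall against the control at 8 h (1.10-fold, adjusted p = 0.0442) dropped out in 10 of the 15 omissions of 1 array (adjusted p 0.0503 to 0.142): control replicates 2 and 3, withdrawal replicates 2 and 3, 2 h replicates 2 and 3, 4 h replicate 3 and the 3 arrays at 8 h.

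**Figure D4:**
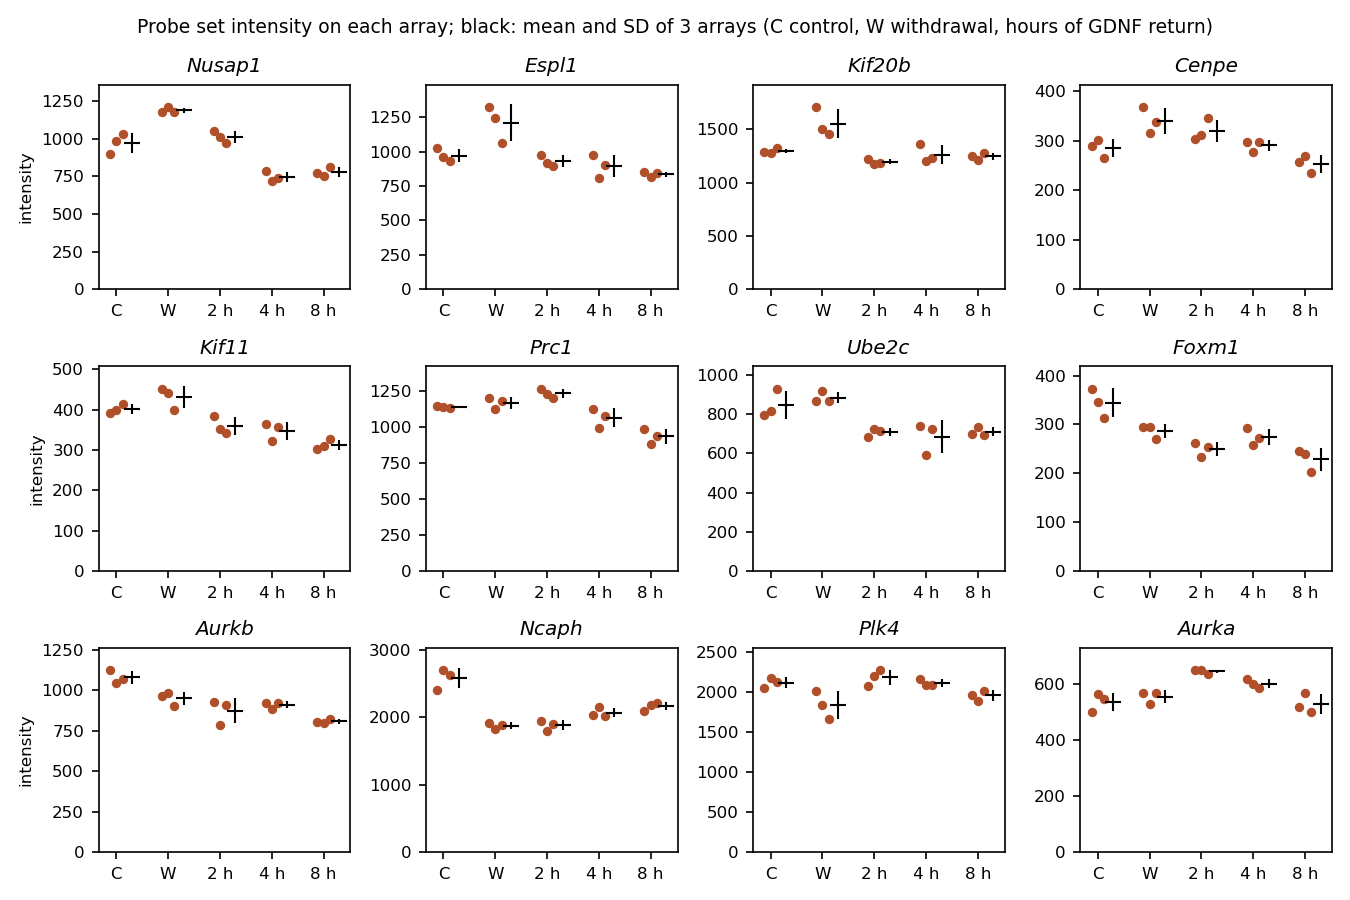
Probe set intensity of 12 members on each of the 15 arrays (orange points), with mean and SD of the 3 arrays of each group in black; each panel has its own intensity axis starting at 0. Nusap1, Espl1 and Kif20b peak after withdrawal, Foxm1, Aurkb and Ncaph drop there, and Plk4 and Aurka are highest at 2 h.

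Of 6 tested members that act in cytokinesis, 4 fell at 8 h against withdrawal (15.4% of all tested probe sets did). Kif23 and Ect2 did not. Kif20b, a midzone kinesin needed for abscission, had intensities of 1287, 1277 and 1319 in the control and 1704, 1501 and 1451 after withdrawal. At 2 h Kif20b read 1222, 1176 and 1183, at 4 h 1362, 1197 and 1226 and at 8 h 1246, 1212 and 1277. The withdrawal arrays were above all others. It rose 1.20-fold after withdrawal (log2 change 0.26 ± 0.059 SE, limma adjusted p = 0.00555) and fell 1.30-fold by 2 h (adjusted p = 0.000367), with log2 changes of 0.06 from 2 h to 8 h (adjusted p = 0.489) and of -0.06 at 8 h against the control (adjusted p = 0.6). Kif20a, the kinesin that brings PLK1 to the midzone, measured 1138, 1196 and 1299 in the control and 1356, 1308 and 1366 after withdrawal. At 2 h Kif20a read 1158, 1189 and 1212, at 4 h 1003, 996.2 and 1031 and at 8 h 1049, 1030 and 1153. Withdrawal arrays exceeded all others and the 4 h arrays were below every control, withdrawal and 2 h array. It fell 1.33-fold at 4 h and 1.25-fold at 8 h against withdrawal (log2 changes -0.41 ± 0.053 and -0.32 ± 0.053 SE, adjusted p = 3.59e-05 and 0.000453). Its calls at 2 h (adjusted p = 0.0215; 0.0525 to 0.0769 without withdrawal replicate 1 or 3 or 2 h replicate 1 or 2) and against the control at 8 h (adjusted p = 0.0496; up to 0.195 in 13 of the 15 omissions, the exceptions being control replicate 1 and 8 h replicate 3) were the less stable.

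Prc1, which bundles the midzone and recruits PLK1, fell late, with 1148, 1145 and 1135 in the control and 1206, 1125 and 1184 after withdrawal. At 2 h Prc1 read 1269, 1234 and 1206, at 4 h 1127, 995.5 and 1078 and at 8 h 988.4, 882.8 and 943. At 8 h all arrays were below all arrays of the other groups, and the 2 h arrays were the highest in mean. It fell 1.25-fold at 8 h against withdrawal, 1.22-fold against the control and 1.32-fold against 2 h (log2 changes -0.32, -0.29 and -0.40, each ± 0.052 SE, limma adjusted p = 0.000395, 0.00239 and 6.8e-05). Racgap1, the GTPase-activating part of centralspindlin, fell 1.18-fold at 8 h against withdrawal (adjusted p = 0.000854), and its dimmer second probe set did not pass. Ect2, the RhoA activator that places the furrow, gave 2893, 2911 and 2837 in the control and 2909, 2764 and 2886 after withdrawal. At 2 h Ect2 read 3143, 2872 and 3016, at 4 h 3214, 3227 and 3144 and at 8 h 2963, 2847 and 2719. Its 4 h arrays were above all control, withdrawal and 8 h arrays. It rose 1.12-fold at 4 h against withdrawal (log2 change 0.16 ± 0.040 SE, adjusted p = 0.00666) and had a change of -0.01 at 8 h (adjusted p = 0.943).

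Of the 6 members that shape chromosomes, 3 fell and 1 rose at 8 h against withdrawal (15.4% and 9.62% of all tested probe sets). Ncaph, the kleisin of condensin I, showed 2411, 2696 and 2633 in the control and 1918, 1824 and 1890 after withdrawal. At 2 h Ncaph read 1951, 1799 and 1900, at 4 h 2032, 2154 and 2025 and at 8 h 2093, 2181 and 2206. Every control array lay above every other array and the 8 h arrays lay above withdrawal and 2 h. It fell 1.37-fold after withdrawal (log2 change -0.46 ± 0.047 SE, limma adjusted p = 7.63e-06), the largest fall of any member there. It then rose 1.15-fold at 8 h against withdrawal (adjusted p = 0.00588), remaining 1.19-fold below the control (adjusted p = 0.00267). A rise of 1.10-fold at 4 h (adjusted p = 0.035) was lost without withdrawal replicate 2 or 3 or 4 h replicate 2 (adjusted p 0.0654 to 0.131). Ncapd2, another condensin I subunit, went the other way: it rose 1.18-fold after withdrawal (adjusted p = 0.00342) and fell 1.20-fold at 8 h against withdrawal (adjusted p = 0.00171). Smc2 and Smc4, the ATPase core of both condensins, did not pass in any comparison (log2 changes -0.09 to 0.01 and -0.13 to 0.11). Mki67, the proliferation antigen that coats mitotic chromosomes, rose 1.18-fold after withdrawal (adjusted p = 0.00945) and fell 1.20-fold at 8 h against withdrawal (adjusted p = 0.00386), to a level 1.02-fold from the control (adjusted p = 0.817). Top2a, whose promoter is printed above, fell 1.18-, 1.20- and 1.25-fold at 2, 4 and 8 h against withdrawal (adjusted p = 0.0103, 0.00391 and 0.00114); the 2 h call was lost without 2 h replicate 3 (adjusted p = 0.0524), and a second Top2a probe set did not pass at 2 h (adjusted p = 0.0625) but fell at 4 and 8 h.

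Of the 4 members that act in anaphase and exit, 3 fell at 8 h against withdrawal (15.4% of all tested probe sets did). Espl1, separase, the protease that cuts cohesin, stood at 1023, 958.3 and 932.1 in the control and 1321, 1245 and 1061 after withdrawal. At 2 h Espl1 read 975.9, 919.3 and 894.9, at 4 h 973.1, 811.6 and 900.5 and at 8 h 849, 811.9 and 841.4. Withdrawal arrays were above all others, and the 8 h arrays lay below all control, withdrawal and 2 h arrays. It rose 1.24-fold after withdrawal (log2 change 0.31 ± 0.077 SE, limma adjusted p = 0.00978), the largest rise of any member there, and fell 1.30-, 1.35- and 1.44-fold at 2, 4 and 8 h against withdrawal (adjusted p = 0.00276, 0.000634 and 0.000158). Ube2c, the ubiquitin-conjugating enzyme of the anaphase-promoting complex, read 798.5, 818.7 and 930.4 in the control and 869.6, 918 and 869.7 after withdrawal. At 2 h Ube2c read 684.3, 726.9 and 715.4, at 4 h 741.4, 592 and 725.9 and at 8 h 700.5, 736.1 and 695.2. All 9 arrays after GDNF return were below all control and withdrawal arrays. It fell 1.25-fold at 2 h, 1.30-fold at 4 h and 1.25-fold at 8 h against withdrawal (log2 changes -0.32, -0.38 and -0.32, each ± 0.077 SE, adjusted p = 0.00698, 0.00188 and 0.00719). Against the control at 8 h (1.19-fold, adjusted p = 0.0422) the call was lost in 10 of 15 omissions (adjusted p 0.0513 to 0.17), the 5 that kept it being control replicate 1, withdrawal replicate 1 and the 4 h arrays.

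Pttg1, securin, the inhibitor of separase, fell 1.15-fold at 4 h and 1.20-fold at 8 h against withdrawal (limma adjusted p = 0.00926 and 0.00188). Cdc20, the activator of the anaphase-promoting complex, measured 1031, 1088 and 990.1 in the control and 1081, 1061 and 1019 after withdrawal. At 2 h Cdc20 read 1149, 1201 and 1177, at 4 h 1127, 1113 and 1071 and at 8 h 1056, 929.3 and 1009. The 2 h arrays were above all control, withdrawal, 4 h and 8 h arrays. It rose 1.12-fold at 2 h against withdrawal (log2 change 0.16 ± 0.051 SE, adjusted p = 0.0334), lost without withdrawal replicate 2 or 3 or any 1 of the 2 h arrays (adjusted p 0.0522 to 0.109), and fell 1.18-fold from 2 h to 8 h (adjusted p = 0.00329). Of the other 4 Cdc20 probe sets, 3 had changes of the same sign in those comparisons and 1 did not. That 1 fell by 0.70 on the log2 scale at 2 h and rose by 1.19 at 8 h against withdrawal (adjusted p = 0.0212 and 0.000629). From 2 h to 8 h it rose by 1.88 (adjusted p = 1.26e-05).

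The other genes of these pathways, 162 tested of 196 listed in 7 lists, were also counted. At 8 h against withdrawal 51 fell and 7 rose (31.5% and 4.32%, against 15.4% and 9.62% of all tested probe sets), with a median log2 change of -0.10. After withdrawal 27 rose and 14 fell (16.7% and 8.64%, against 11.4% and 9.67%), so the share that fell was near that of all probe sets. At 2 h 12 rose and 37 fell against withdrawal (7.41% and 22.8%, against 11.9% and 14.2%), and at 4 h 15 rose and 49 fell (9.26% and 30.2%, against 14.6% and 16%). At 8 h 2 rose and 24 fell against the control (1.23% and 14.8%, against 4.83% and 7.49%), and 14 rose and 31 fell against 2 h (8.64% and 19.1%, against 11.8% and 14.4%). By role, kinetochore and centromere genes fell in 14 of 33 (42.4%) at 8 h against withdrawal, among them Cenpp (1.43-fold, limma adjusted p = 1.07e-05), the checkpoint genes Mad1l1 (1.33-fold) and Kntc1 (1.29-fold). Spindle and centrosome genes fell in 15 of 38 (39.5%), led by the augmin subunit Haus4 (1.36-fold, adjusted p = 5.26e-06) and the motor Kif15 (1.28-fold), while 2 rose, Fam83d and Tacc2. Tacc2, a centrosomal coiled-coil protein, fell 1.87-fold after withdrawal and rose 2.00-fold at 8 h (limma adjusted p = 4.03e-09 and 1.73e-09). Each was a larger change than that of any member by the probe set used for it.

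Entry control genes fell in 8 of 18 (44.4%) at 8 h against withdrawal, with Gtse1 at 1.33-fold, the kinase Pbk at 1.26-fold and Plk2 at 1.48-fold (limma adjusted p = 0.000474, 0.000483 and 0.00354). Of 12 tested factors that bind these promoters, the MuvB, MYB and DREAM genes, only Mybl2, which encodes B-MYB, passed at 8 h against withdrawal, 1.29-fold lower (adjusted p = 0.012). It also fell 1.22-fold at 2 h and 1.32-fold at 4 h (adjusted p = 0.0375 and 0.0056), whereas Nfyb and the MuvB gene Lin9 rose at 2 h (1.23- and 1.18-fold, adjusted p = 0.00654 and 0.0118). Of 23 further genes of the anaphase-promoting complex and mitotic exit, 5 fell (21.7%) and 1 rose at 8 h against withdrawal, among them Anapc2 (1.16-fold, adjusted p = 0.00338) and Cdc16 (1.12-fold). Cytokinesis genes fell in 4 of 21 (19%) and rose in 2, with Cdca3 1.44-fold lower (adjusted p = 7.13e-06), and condensin and cohesin genes fell in 4 of 17 (23.5%) and rose in 1, with the meiotic cohesin gene Smc1b 1.26-fold lower (adjusted p = 0.000793). Against 15.4% of all tested probe sets and 19.3% of named genes, the shares that fell in these last 3 lists are near the background. The lists were chosen with earlier results known, so the counts are descriptions.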

How the data were processed

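RNA from 15 cultures was hybridised to 15 single-colour arrays, 3 per group. The deposited table holds linear intensities, 1 per probe set and array, made with GCRMA and Partek 6.3 per the submitters' processing notes; their roles, order and settings are not given here. GCRMA models background from probe sequence, which matters most at low intensity. Each intensity was converted to log2 without another normalization, 57 control probe sets were left out, and 15856 of 31099 probe sets (51.1%) passed the low-value filter (16 on the linear scale on 3 arrays). Of all probe sets 20832 had 1 symbol, 436 several and 9831 none; 20764 symbols were updated through RefSeq's GRCr8 table, for names alone.

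Groups were compared in R 4.3.3 by limma 3.58.1 (lmFit, then trended eBayes) fitted to all 15 arrays together, with 10 residual degrees of freedom, in 6 comparisons and an F test. P-values are two-sided, adjusted by Benjamini-Hochberg within each comparison. SE is that of the log2 change. The steps were tested on simulated data.

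The members and lists were chosen with earlier results of these data known. Any member may be named; a member's value on every array is given where in some comparison it passed, its groups did not overlap and it was among the 4 largest rises or falls, and always for Foxm1, Plk1, Aurkb, Ccnb1, Cdk1 and Cdc20. Of each other list up to 3 called genes with the smallest adjusted p are named; Fam83d was named after its values were seen. Alternatives were other filters, a floor, median centring, quantile normalization, no trend, array weights, only the groups compared, fewer or averaged probe sets, a replicate block and each array left out. Leaving out replicate 1 of control, withdrawal and 4 h together (arrays set apart in earlier results) and a mesenchymal covariate were chosen after seeing the data.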

Additional observations from a re-analysis of the deposited data

How the results depend on the processing

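Over 29 alternatives, 357 of 376 recomputed counts of members stayed close to their main value (equal to it or within 1.5 times it), and 19 moved. Many alternatives leave out 1 array of a group outside the comparison, where the log2 change cannot move. These totals are therefore no measure of how stable a single call is. Falls after withdrawal numbered 3 with no low-value filter, 2 with only the groups compared and 3 with 3 arrays left out together, against 6. Falls at 8 h against the control numbered 12 with median centring, against 19. Rises at 4 h numbered 1 with only the groups compared, rises at 8 h against withdrawal 2 with a gene's probe sets averaged, and rises at 2 h 1 with the mesenchymal covariate, which also left 7 falls at 8 h against 2 h in place of 18. With each array left out in turn, the ranges were 3 to 6 falls after withdrawal, 1 to 3 rises at 2 h, 1 to 3 rises at 4 h, 1 to 2 rises and 25 to 27 falls at 8 h against withdrawal, and 12 to 19 falls at 8 h against the control. Rises at 2 h were 1 without withdrawal replicate 2, and rises at 4 h were 1 without withdrawal replicate 3. For single members 6814 of 7134 values stayed called in the same direction or stayed uncalled, and the sign of uncalled values was not compared. Of the others, 252 lost the call, 66 gained one and 2 reversed. Both reversals were of Cdc20 when its 5 probe sets were averaged, 1 of which moved opposite to the rest. Cdc20 then changed by 0.21 at 8 h against withdrawal (limma adjusted p = 0.0193) and by 0.145 against 2 h. Deviations of same-numbered arrays had correlations from -0.138 to 0.389 (median 0.0405, 30 pairs). Those of differently numbered arrays ranged from -0.33 to 0.358 (median -0.0125, 60 pairs). With 3 arrays per group these values cannot settle whether the numbers pair the cultures, and the main fit had no pairing. With the replicate block 12 members rose and 6 fell after withdrawal, and 20 fell at 8 h against the control. Changes are small, 10 residual degrees of freedom limit the tests, and low intensities depend on a background estimate.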
